A study of Mus musculus and Sus scrofa with 18 samples.

Results

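The genes described here were huntingtin (Htt) and 9 genes listed as its partner genes. These were Hap1, Hip1, Hip1r, F8a, Zdhhc17, Setd2, Rasd2, Dctn1 and Optn, and direct binding is not claimed for each. They were chosen by name, though with earlier results of these data known. Each symbol was matched to an Ensembl gene of the mouse count table, giving 10 of its 55357 genes. All 10 were among the 19463 genes with enough counts to be tested. The RNA came from mouse striatum, the forebrain region that degenerates first in Huntington's disease (HD), and 3 libraries were made for each of 3 groups. The labels number them as replicates without tying each to an animal, so the p-values measure the spread between libraries. WT mice carried no knock-in allele and received AAV9-Ctrl gRNA, a viral vector for a non-targeting guide, with no CasRx. Untreated mice were heterozygous HD 140Q-KI animals that received AAV9-CasRx with AAV9-Ctrl gRNA. Treated mice were heterozygous HD 140Q-KI animals that received AAV9-CasRx with vectors for 4 guides against HTT, AAV9-HTT gRNA1+2 together with AAV9-HTT gRNA3+4. In the study's account the mice were injected in the striatum on both sides at 6 months of age and dissected 6 weeks later. The CAG promoter, which is active in most cell types, drove CasRx, and the U6 promoter drove the guides. A comparison of either HD group with WT therefore differed by genotype as well as by the presence of CasRx, and these cannot be told apart. Treated and untreated mice shared the knock-in allele and CasRx and differed in the guide vectors they received, and the libraries also differed in sex, as given below.

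Huntingtin is a large scaffold protein that is needed in development and takes part in vesicle transport, endocytosis, autophagy and transcription. Expansion of the CAG repeat in exon 1 of its gene lengthens a glutamine stretch and causes HD, in which projection neurons of the striatum are the most vulnerable cells. In the 140Q-KI allele human HTT exon 1 with an expanded repeat stands in place of mouse exon 1, and the remainder of the transcript is mouse. Hap1 and dynactin couple huntingtin to microtubule motors and Hip1 couples it to clathrin, while Hip1r is a relative of Hip1. The protein made from F8a (also called HAP40) forms a stable complex with huntingtin. Zdhhc17 attaches palmitate to huntingtin, Setd2 trimethylates lysine 36 of histone H3, Rasd2 (also called Rhes) is a small GTPase enriched in the striatum, and Optn is a receptor for selective autophagy. CasRx is an RNA-guided nuclease that cuts RNA, not DNA, where a guide pairs with it.

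The 4 HTT guides are shown because the knock-in allele carries human exon 1 and the normal allele carries mouse exon 1 of the same gene. The spacers, 5′ to 3′, were these, with the Ctrl gRNA last.
gRNA1 spacer: aggccttcatcagcttttccagggtcgcca
gRNA2 spacer: ggtcggtgcagcggctcctcagccacagcc
gRNA3 spacer: gctgaggaagctgaggaggcggcggcggcg
gRNA4 spacer: gtgcctgcggcggcggctgaggaagctgag
Ctrl spacer: cggaattcatccagccaccagggtcgccg

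Each spacer was then compared with every window of the mouse Htt transcript of the GENCODE M21 annotation (build GRCm38, plus strand). For each guide the RNA sequence it is complementary to is written above the best mouse window, both 5′ to 3′, and capitals mark the bases that differ between them. The windows were chr5:34761908-34761937 for gRNA1, chr5:34762080-34762109 for gRNA2, chr5:34762007-34762036 for gRNA3 and chr5:34762022-34762051 for gRNA4, all in the coding part of exon 1 of Htt.
gRNA1 complement: tggcGaccctggaaaagctgatgaaggcCt
gRNA1 mouse window: tggcAaccctggaaaagctgatgaaggcTt
gRNA2 complement: GgCtGTggcTgaggaGccgctgcaccgacc
gRNA2 mouse window: AgGtCCggcAgaggaAccgctgcaccgacc
gRNA3 complement: cgccgccgccGccTcctcaGcTTcctcagc
gRNA3 mouse window: cgccgccgccTccGcctcaAcCCcctcagc
gRNA4 complement: ctcaGcTTcctcagccgccgccGcaggCAc
gRNA4 mouse window: ctcaAcCCcctcagccgccgccTcaggGGc

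The gRNA1 window of mouse Htt matched 28 of 30 bases, with an unbroken run of 23. The best windows for gRNA2, gRNA3 and gRNA4 matched 24, 25 and 24 of 30 bases. The Ctrl gRNA matched at most 17 of its 29 bases in Htt. Of 19406 tested genes with an annotated transcript, Htt was the only one with a run of 23 or more bases complementary to gRNA1, a share of 0.00515%. The longest runs in Htt were 14 bases for gRNA2, reached by 0.113% of genes, 16 for gRNA3 (0.299%) and 14 for gRNA4 (0.283%). The run of 16 for gRNA3 was not in the alignment shown above, where the longest run was 10. For the Ctrl gRNA the run in Htt was 10 bases, which 12.9% of genes reached. In the 9 partner genes no run to any HTT guide exceeded 12 bases, which was found between Hap1 and gRNA2 and was reached by 1.71% of genes. A match is a description of letters and not evidence that CasRx cut there.

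**Figure D1:**
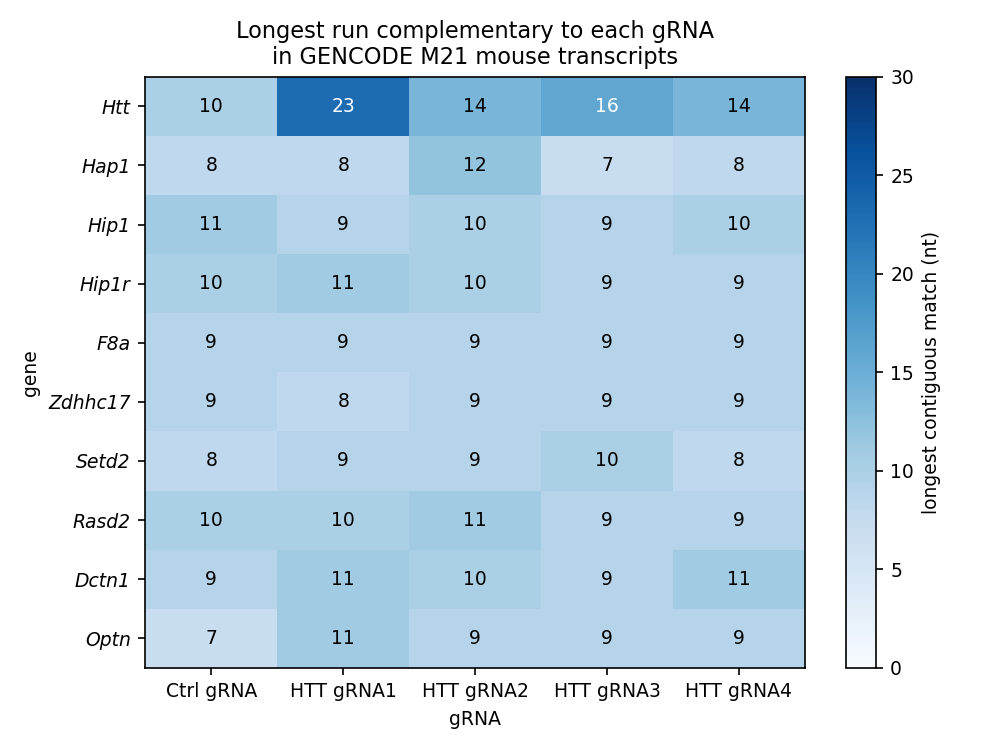
Longest run of bases complementary to each gRNA (columns) in the GENCODE M21 mouse transcripts of the 10 genes (rows), in nucleotides, as numbers and as shade of blue. The cell for Htt and HTT gRNA1 holds 23, while the partner genes range from 7 to 12 for the HTT guides.

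Levels are given in CPM, a gene's count scaled to an effective library size of 1000000 counts. Since the libraries capture the 3′ ends of polyadenylated RNA, a level in CPM is not divided by transcript length, and levels are compared between groups and not between genes. The libraries held 27184356 to 32102121 counts, of which the 10 genes together took 0.135 to 0.215%. Genes of the Y chromosome had 3435 to 5005 counts in the 3 WT libraries and in replicate 1 of the untreated group, and 0 in the other 5 libraries. Sex and group therefore cannot be told apart except through that untreated library, whose Htt and Rasd2 levels are given below. The summed level of 25 markers of striatal projection neurons was 13144 to 17525 CPM in the WT libraries, 4892 to 5736 CPM in the untreated and 7220 to 7385 CPM in the treated libraries, with all 25 above 0 in every library, so the tissue carried the markers of its label. Markers of cortical projection neurons summed to 277 to 995, 1148 to 1374 and 796 to 857 CPM, and those of choroid plexus to 66.5 to 3828, 37.7 to 189 and 40.7 to 1296 CPM, and their part in the results was not tested. In bulk tissue, fewer cells of a type and less RNA per cell cannot be told apart.

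In untreated compared with WT striatum, 2 of the 10 genes passed an adjusted p of 0.05 in edgeR, Htt and Rasd2, and both were lower. Of all tested genes 10.7% passed, and 6.1% of all tested genes passed as lower. In treated compared with WT striatum the genes called were again Htt and Rasd2, both lower, against 3.69% of all genes, 2.78% as lower. Between treated and untreated mice edgeR called 0 of the 10 genes and 0 of all 19463 (0%). At an unadjusted P under 0.05 there were 1071 genes (5.5%), Rasd2 the one among the 10, and DESeq2 called 48 genes, none of them among the 10. The median log2 fold change of the 10 genes was −0.15 in untreated and −0.13 in treated compared with WT, beside 0.02 and 0.00 over all genes. Between the HD groups it was −0.03, beside −0.01. The other 8 genes did not pass in edgeR in either comparison with WT. DESeq2 called 2 of the 10 in untreated and 3 in treated mice, Hip1 being the added gene. Of all 19463 genes DESeq2 called 3473 in untreated and 1946 in treated compared with WT mice.

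**Figure D2:**
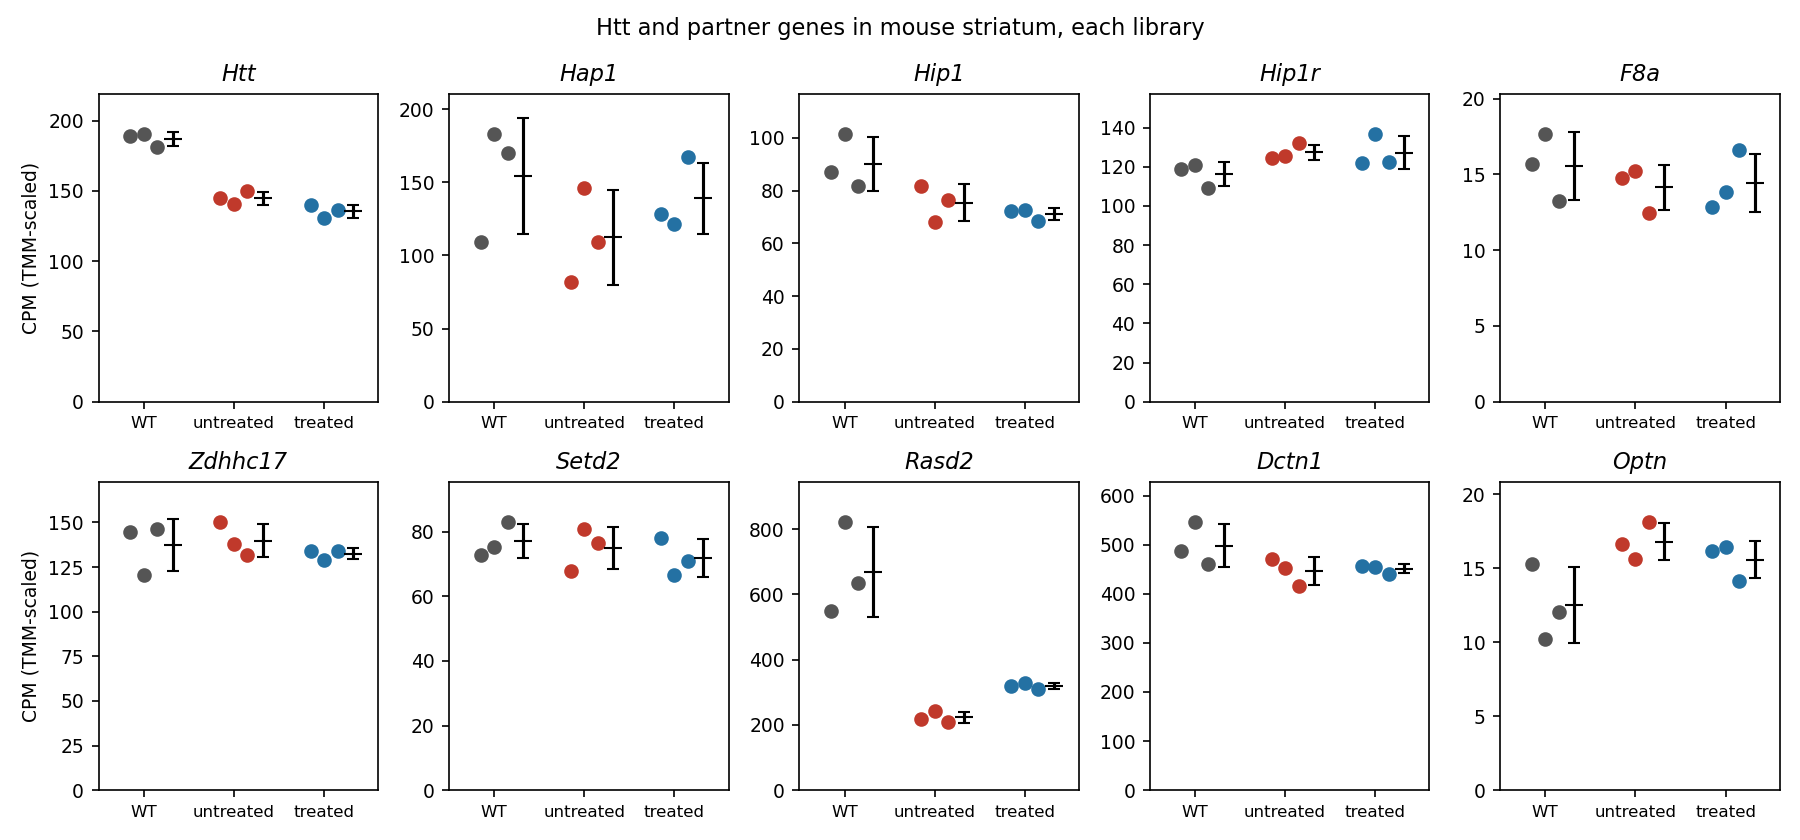
Level of each of the 10 genes in CPM (vertical axis, each panel from 0) in the 3 libraries of each group, with the group mean and SD as bars. The untreated and treated points of Htt and Rasd2 lie below every WT point, while those of Hap1, F8a, Zdhhc17 and Setd2 overlap the WT points.

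Htt (ENSMUSG00000029104, chromosome 5) was expressed at 189, 191 and 182 CPM in the 3 WT libraries. It was at 145, 140 and 150 CPM in the untreated libraries and at 140, 130 and 136 CPM in the treated ones. All 6 HD libraries were below all 3 WT libraries, a separation in either direction that 18.7% of all genes showed. The 3 treated libraries were below the 3 untreated ones by a narrow margin. The group means were 187 ± 4.81 CPM for WT, 145 ± 4.62 CPM for untreated and 135 ± 4.65 CPM for treated mice (SD, n = 3 each). These are 77.5% and 72.5% of the WT mean for untreated and treated mice.

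Htt was lower in untreated than in WT mice, by a log2 fold change of −0.37 ± 0.06 (SE), with a 95% interval from −0.50 to −0.24 (edgeR adjusted p = 0.00656, rank 348 among the tested genes). It was lower in treated than in WT mice by −0.46 ± 0.06, with an interval from −0.60 to −0.33 (edgeR adjusted p = 0.00425, rank 81). The mean difference from WT was −42.1 CPM in untreated mice, which received no HTT guide, and −51.5 CPM in treated mice. The counts behind each value ran from 3961 to 5462, and the spread between libraries of a group was 2.6 to 3.4% of the mean, where counting alone gives 1.4 to 1.5%.

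The comparison of treated with untreated mice asks how far the HTT guides lowered total Htt RNA. The percent change was −6.51%, with a 95% interval from −14.7% to 2.45%. On the log2 scale the difference was −0.10 ± 0.06, with an interval from −0.23 to 0.03 (edgeR adjusted p = 0.942). The groups did not overlap, which holds for 8.83% of all genes in the lower direction, and the two-sided exact permutation test gave p = 0.1, the smallest that 3 against 3 libraries allow. The interval holds no difference as well as a change of −14.7% in the summed Htt count. That count joins both alleles, because the 3′ end of the transcript is the same in the knock-in and the normal allele. A change of the knock-in transcript alone therefore cannot be read from these counts. The study measured it separately by quantitative PCR and reports less mutant HTT mRNA in treated than in untreated mice at each age of injection. It also reports less mutant huntingtin protein in the striatum of treated mice on Western blots. Those measurements are not part of the counts used here. The annotated gene Msantd1 overlaps Htt on the same strand, and reads shared between them cannot be assigned.

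All 3 WT libraries and 1 untreated library had Y-linked reads. The untreated library that had them stood at 145 CPM for Htt, below the 3 WT libraries and between the other untreated libraries of 140 and 150. With the share of Y-linked counts in the model, the Htt difference was −0.38 in untreated (edgeR adjusted p = 0.0591) and −0.48 in treated mice (adjusted p = 0.177). In that model 457 and 5 of all genes were called. Leaving out any 1 library gave −0.39 to −0.35 for untreated mice. With Y-linked share in the model the standard error rose from 0.06 to 0.08 and 0.10. All WT libraries and no treated library had Y-linked reads, so that model separates sex from group largely through 1 untreated library. It cannot decide the part of sex in the Htt difference.

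Rasd2 (ENSMUSG00000034472, chromosome 8), the striatum-enriched GTPase, was expressed at 549, 821 and 636 CPM in the WT libraries. It was at 219, 243 and 210 CPM in the untreated and at 319, 327 and 309 CPM in the treated libraries. The 3 groups formed separate steps, with untreated lowest, treated next and WT highest. Of all genes, 18.7% separated both HD groups from WT in either direction. The means were 669 ± 139, 224 ± 17.0 and 318 ± 9.28 CPM (SD, n = 3 each), so that untreated mice had 33.5% and treated mice 47.6% of the WT mean. It was the one gene of the 10 that also met the rule of at least 2-fold with P under 0.05 in both comparisons with WT, which 8.16% and 5.22% of all genes met.

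Rasd2 fell by 1.58 on the log2 scale in untreated compared with WT mice (SE 0.14, 95% interval −1.88 to −1.28, edgeR adjusted p = 3.71e-04). It fell by 1.07 in treated compared with WT mice (SE 0.13, interval −1.37 to −0.77, adjusted p = 0.00413). The untreated library with Y-linked reads had 219 CPM, within the range of the other untreated libraries. With Y-linked share in the model the fold changes were −1.64 (edgeR adjusted p = 0.00662) and −1.17 (adjusted p = 0.128).

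Rasd2 was the gene of the 10 with the smallest P between treated and untreated mice. The log2 fold change was 0.51 ± 0.13, with an interval from 0.21 to 0.81 and an unadjusted edgeR P of 0.00362, rank 82 of all genes. The groups did not overlap, which 6.92% of all genes showed in the higher direction, and the exact permutation test gave its smallest p of 0.1. The difference did not pass the correction over all genes (adjusted p = 0.821 in edgeR and 0.0676 in DESeq2). The mean difference from WT was −445 CPM in untreated and −350.2 CPM in treated mice, so treated mice had 78.7% of the untreated difference.

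The markers of striatal projection neurons, the cells in which Rasd2 is most abundant, moved with it. All 25 were called lower in untreated mice and 21 of 25 in treated mice, beside 6.1% and 2.78% of all tested genes. The markers were listed with earlier results of these data known, so these counts are a description and not a test. Their median log2 fold changes were −1.63 and −1.05 compared with WT, beside −1.58 and −1.07 for Rasd2. Between treated and untreated mice the markers had a median of 0.55, beside 0.51 for Rasd2. There edgeR called 0 of the 25, with 21 higher at an unadjusted P under 0.05, and DESeq2 called 12. In each comparison Rasd2 lay inside the range of the markers, with 14, 11 and 15 of the 25 further from 0. The part of the projection neuron markers' change in that of Rasd2 was not tested. Markers of all neurons did not fall in sum, at 6617 to 8239 CPM for WT, 7968 to 9469 CPM for untreated and 7470 to 7904 CPM for treated libraries.

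**Figure D3:**
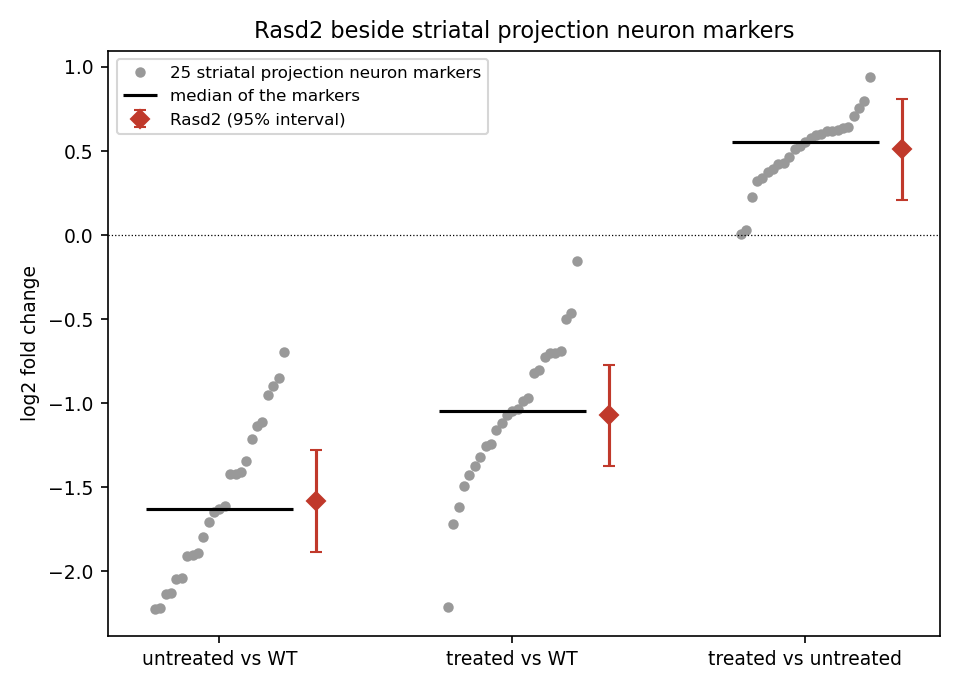
Log2 fold change of Rasd2 (red diamond, bar for the 95% interval) beside those of 25 striatal projection neuron markers (grey points, black line at their median) in the 3 comparisons. Rasd2 lies near the marker median each time, at −1.58 beside −1.63, −1.07 beside −1.05 and 0.51 beside 0.55.

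By the correlation of log2 CPM over the 9 libraries, genes whose pattern was most like that of Rasd2 included Syndig1l (r = 0.998) and Gpr6 (0.996). Syndig1l stood at 254, 64.9 and 103 CPM in WT, untreated and treated mice, and Gpr6, a receptor of indirect-pathway striatal neurons, at 76.4, 17.4 and 28.5 CPM. The genes most like Htt were Rnf185 (r = 0.995), Odf4 (0.977) and Camsap1 (0.975). Rnf185, a ubiquitin ligase, stood at 35.0, 30.3 and 29.4 CPM. Camsap1, which binds the minus ends of microtubules, stood at 133, 110 and 104 CPM. The points share library, group and depth, and these are descriptions over 9 libraries.

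Hap1, Hip1 and F8a encode partners of huntingtin in its transport and at membranes, and Hip1r encodes a relative of Hip1. Hap1 (ENSMUSG00000006930, chromosome 11) was expressed at 109, 183 and 170 CPM in WT, 81.8, 146 and 109 CPM in untreated and 128, 122 and 167 CPM in treated libraries. The 3 groups overlapped. The means were 154 ± 39.4, 112 ± 32.3 and 139 ± 24.5 CPM (SD, n = 3 each), and the log2 fold changes compared with WT were −0.46 in untreated and −0.15 in treated mice (edgeR adjusted p = 0.240 and 0.762). The interval for untreated mice ran from −0.99 to 0.08, the widest of the 10 genes. Libraries of a group differed by 17.7 to 28.7% of the mean, where counting gives 1.5 to 1.7%, so depth did not limit Hap1.

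Within each group Hap1 was lowest where cortical markers were highest, a pairing singled out after its values were seen. Across groups this order did not hold, as untreated replicate 2 (cortical sum 1148 CPM) had more Hap1 than WT replicate 1 (995 CPM). Summed cortical markers in the WT libraries were 995, 433 and 277 CPM in the order of the Hap1 values above. They were 1374, 1148 and 1364 CPM in the untreated and 852, 857 and 796 CPM in the treated libraries. In every group the library with the highest cortical sum had the lowest Hap1, by 857 against 852 CPM in the treated group. The same libraries had the lowest sums of striatal projection neuron markers in their groups, at 13144 CPM in WT, 4892 CPM in untreated and 7220 CPM in treated mice. Markers of hypothalamic neurons, a cell type rich in Hap1, summed to 20.7 to 68.7 CPM for WT, 22.3 to 32.4 CPM for untreated and 25.1 to 38.2 CPM for treated libraries, with 6, 6 and 5 of the 10 above 0 in every library. The part of any of these markers in the spread of Hap1 was not tested.

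**Figure D4:**
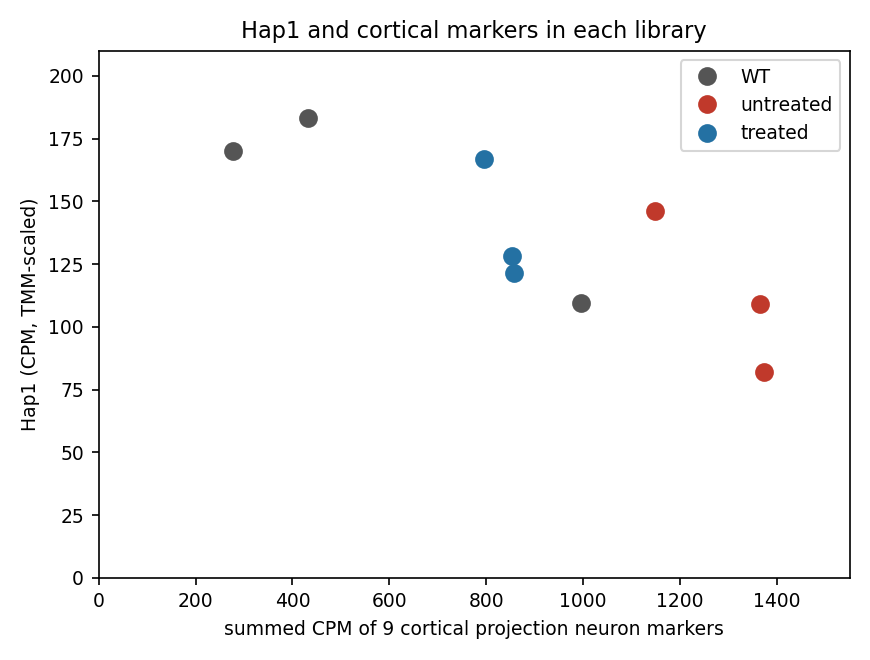
Hap1 in CPM (vertical axis) against the summed CPM of 9 cortical projection neuron markers (horizontal axis) in each of the 9 libraries, coloured by group. The WT library with 995 CPM of cortical markers had 109 CPM of Hap1, the same level as an untreated library with 1364.

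Hip1 (ENSMUSG00000039959, chromosome 5), which binds clathrin and its adaptors, was at 87.1, 102 and 81.8 CPM in WT, 81.6, 68.0 and 76.5 CPM in untreated and 72.1, 72.6 and 68.6 CPM in treated libraries. Every HD library was below every WT library, a separation in either direction that 18.7% of all genes showed. The highest untreated value missed the lowest WT value by a small margin. The log2 fold change was −0.26 ± 0.10 in untreated and −0.34 ± 0.10 in treated mice. Neither passed the correction in edgeR (adjusted p = 0.112 and 0.0810). DESeq2 called the difference in treated mice (adjusted p = 0.0301). Between the HD groups the difference was −0.08, with an interval from −0.30 to 0.13. When both HD groups were averaged and set against WT, a comparison added after the data were seen, Hip1 was called, at −0.30 ± 0.08 (edgeR adjusted p = 0.0442). In that comparison 11.9% of all genes were called, 7.34% as lower, and Htt and Rasd2 were the other members called.

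Hip1r (ENSMUSG00000000915, chromosome 5), the relative of Hip1 that also binds actin, had fold changes of the opposite sign. It was at 119, 121 and 109 CPM in WT, 124, 126 and 132 CPM in untreated and 122, 137 and 123 CPM in treated libraries. All 6 HD libraries were above all WT libraries, a separation in either direction that 18.7% of all genes showed, and the HD groups overlapped. The log2 fold change was 0.13 ± 0.07 in both comparisons with WT, which did not pass (edgeR adjusted p = 0.254 in untreated and 0.329 in treated mice). Between the HD groups the difference was −0.00, with an interval from −0.16 to 0.16, or from −10.4% to 11.4%. The gene Vps37b overlaps Hip1r on the opposite strand. Whether the counting used strand is not given in the sources used here.

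F8a (ENSMUSG00000078317, chromosome X), the source of HAP40, had low levels, at 15.7, 17.7 and 13.3 CPM in WT, 14.8, 15.2 and 12.4 CPM in untreated and 12.9, 13.8 and 16.6 CPM in treated libraries. The groups overlapped. Its log2 fold changes were −0.14 and −0.11 compared with WT (edgeR adjusted p = 0.589 and 0.722) and 0.03 between the HD groups, with intervals from −0.47 to 0.19, −0.44 to 0.22 and −0.30 to 0.36.

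Zdhhc17 (ENSMUSG00000035798, chromosome 10), the palmitoyltransferase also called HIP14, was at 145, 120 and 147 CPM in WT, 150, 138 and 132 CPM in untreated and 134, 129 and 134 CPM in treated libraries. Setd2 (ENSMUSG00000044791, chromosome 9) was at 72.9, 75.2 and 82.9 CPM in WT, 67.8, 80.8 and 76.3 CPM in untreated and 78.0, 66.7 and 70.8 CPM in treated libraries. Both genes overlapped between all groups. The fold changes of Zdhhc17 compared with WT were 0.03 in untreated and −0.05 in treated mice (edgeR adjusted p = 0.874 and 0.777), with intervals from −0.17 to 0.22 and −0.25 to 0.14. Its sign in treated mice turned without TMM scaling, to 0.01. Those of Setd2 were −0.04 and −0.10 (adjusted p = 0.822 and 0.567), with intervals from −0.24 to 0.16 and −0.30 to 0.10, and the first turned to 0.01 without TMM scaling.

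Dctn1 (ENSMUSG00000031865, chromosome 6), which encodes the largest dynactin subunit, was at 486, 546 and 461 CPM in WT. It was at 472, 453 and 415 CPM in the untreated and at 458, 454 and 440.5 CPM in the treated libraries. The treated libraries were all below the WT ones, and the untreated libraries overlapped WT. The log2 fold changes were −0.16 ± 0.08 and −0.14 ± 0.08 (edgeR adjusted p = 0.248 and 0.361) and 0.01 between the HD groups. An antisense gene, Gm15624, overlaps Dctn1.

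Optn (ENSMUSG00000026672, chromosome 2) had the lowest counts together with F8a. It was at 15.3, 10.2 and 12.1 CPM in WT, 16.7, 15.6 and 18.1 CPM in untreated and 16.2, 16.4 and 14.1 CPM in treated libraries. The untreated libraries were all above WT, while the treated ones overlapped it through WT replicate 1. The log2 fold change was 0.42 ± 0.15 in untreated mice, with an interval from 0.08 to 0.76, and 0.31 ± 0.15 in treated mice, with an interval from −0.02 to 0.65. Neither passed in edgeR (adjusted p = 0.101 and 0.266). Leaving out 1 library moved the untreated difference between 0.30, without WT replicate 2 (edgeR adjusted p = 0.233), and 0.58, without WT replicate 1 (adjusted p = 0.0260). It was called only without WT replicate 1. Summed markers of microglia were 403 to 450 CPM for WT, 534 to 1421 CPM for untreated and 653 to 919 CPM for treated libraries, and their part in the Optn values was not tested. An antisense gene, 4930551O13Rik, overlaps Optn.

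**Figure D5:**
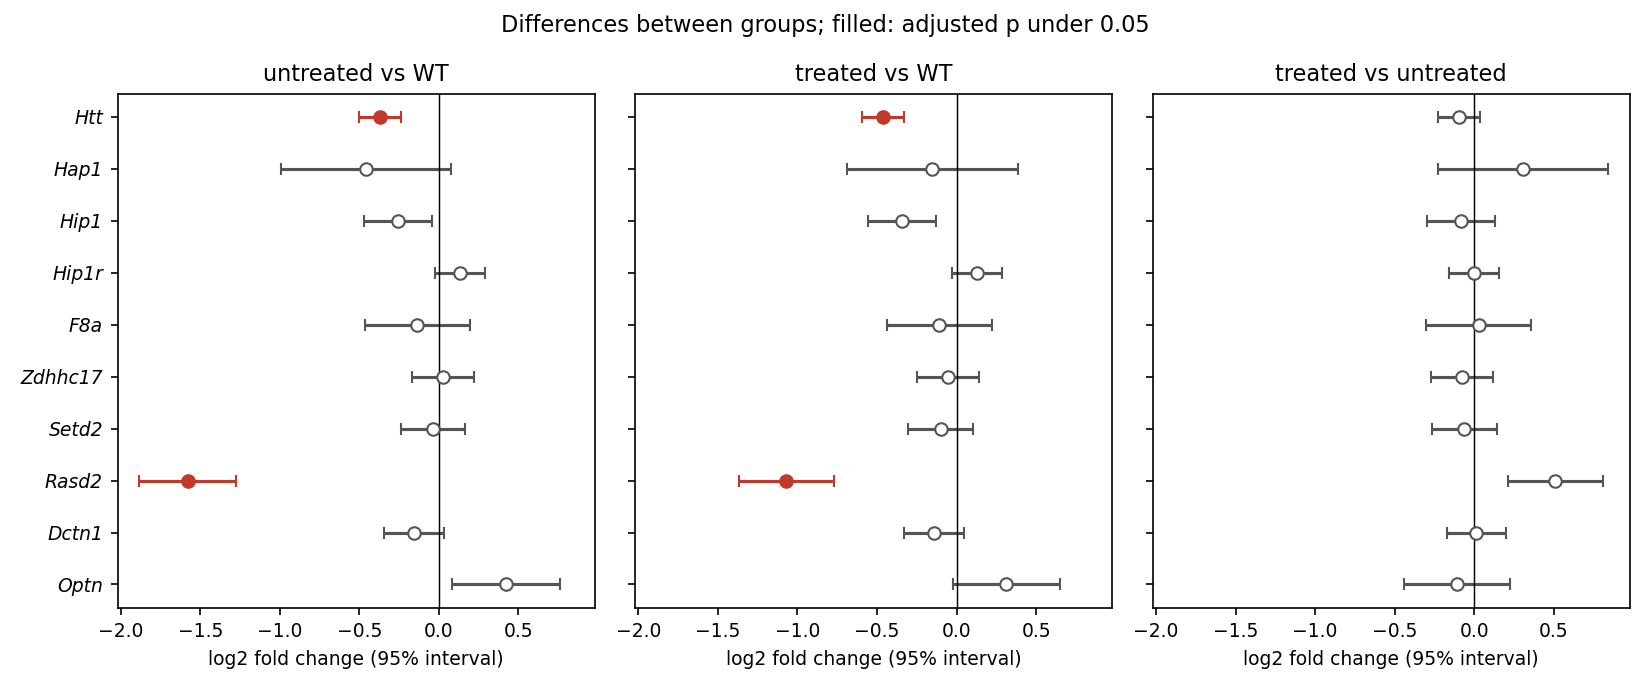
Log2 fold change with its 95% interval for the 10 genes (rows) in the 3 comparisons (panels on 1 scale), filled where the edgeR adjusted p was under 0.05. Htt and Rasd2 are filled in both comparisons with WT, and no gene is filled between treated and untreated mice.

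Counted by overlap, 5 of the 10 genes had untreated libraries that did not overlap WT (Hip1, Htt and Rasd2 lower, Hip1r and Optn higher), where 30.1% of all genes had none. In treated mice there were also 5 (Dctn1, Hip1, Htt and Rasd2 lower, Hip1r higher), where 28.6% of all genes had none. Between treated and untreated mice there were 2, Htt lower and Rasd2 higher, beside 15.8% of all genes. The comparisons with WT share the WT libraries and are not independent of each other.

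The wider machinery around these genes was described with 8 lists, in which every listed gene was tested. Over all 19463 tested genes, 5575 had an unadjusted edgeR P under 0.05 in untreated compared with WT mice. In treated compared with WT mice 4160 did. DESeq2 called 3473 and 1946 of all genes in these comparisons, and the list counts below are to be read beside these. Of 27 genes of dynein, dynactin and kinesin-1, which move cargo along microtubules, edgeR called 0 higher and 3 lower in untreated mice, namely Trak1, Ndel1 and Dynll2, with 4 higher and 5 lower at an unadjusted P under 0.05. DESeq2 called 2 higher and 4 lower there. In treated mice edgeR called 0, with 5 lower at an unadjusted P under 0.05, and DESeq2 called 4 lower. Trak1, a kinesin adaptor, went from 215 ± 8.77 CPM in WT to 183 ± 8.75 in untreated and 179 ± 4.23 in treated mice (SD, n = 3 each). The list's median log2 fold change was 0.01 and −0.03.

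Of 23 genes of clathrin-mediated endocytosis, edgeR called 1 higher and 1 lower in untreated mice, and 1 lower in treated mice. DESeq2 called 5 higher and 1 lower in untreated mice, and 3 lower in treated mice. Ap2b1, the beta subunit of the AP2 clathrin adaptor, was lower in both, from 387 ± 24.0 CPM in WT to 318 ± 11.9 and 297 ± 14.1 (edgeR adjusted p = 0.0390 and 0.0235). Snap91, a neuronal clathrin assembly protein, was higher in untreated mice, from 214 ± 27.9 to 285 ± 9.63 CPM (adjusted p = 0.0344), and stood at 241 ± 21.2 in treated mice. Gak, which uncoats clathrin vesicles, stood at 114, 107 and 96.9 CPM and was called lower in treated mice by DESeq2 but not by edgeR. The median of this list was 0.03 and −0.01.

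Of 26 palmitoylation enzymes, edgeR called 1 in each comparison with WT, and it was Zdhhc14. DESeq2 called 3 higher and 2 lower in untreated mice and 1 lower in treated mice. It went from 78.3 ± 9.60 CPM in WT to 39.2 ± 1.70 in untreated and 47.2 ± 3.78 in treated mice, by −0.998 and −0.73 on the log2 scale (edgeR adjusted p = 7.80e-04 and 0.00595). Zdhhc21 and the depalmitoylating enzyme Lypla1 had fold changes of 0.54 and 0.45 in untreated mice, which did not pass in edgeR (adjusted p = 0.0527 and 0.0600) and were called by DESeq2. The list's median was −0.06 in untreated and −0.04 in treated mice.

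Among 28 other genes whose products bind huntingtin or Hap1, edgeR called 2 lower in both comparisons with WT and 0 higher, with 2 higher in each at an unadjusted P under 0.05. DESeq2 gave the same counts for untreated mice. For treated mice it called Rest higher and 3 genes lower. Itpr1, the inositol trisphosphate receptor that releases calcium from the endoplasmic reticulum, went from 1085 ± 52.7 CPM to 657 ± 15.3 in untreated and 657 ± 42.9 in treated mice, by −0.72 in each (edgeR adjusted p = 0.00103 and 0.00324). Dlg4, the postsynaptic scaffold PSD-95, went from 832 ± 71.2 CPM to 606 ± 5.63 and 606 ± 12.03 (adjusted p = 0.00856 and 0.0148). Both stood at the same level in treated and untreated mice, with fold changes of 0.00 and −0.00. Git1 stood at 376, 328 and 275 CPM and was called lower in treated mice by DESeq2 but not by edgeR. The list's median was −0.03 in untreated and −0.06 in treated mice.

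Of 19 genes of histone H3 lysine 36 methylation, the reaction of Setd2, edgeR called 1 higher and 2 lower in untreated mice, and 2 lower in treated mice. DESeq2 called 1 higher and 3 lower, and 1 higher and 2 lower. Kdm4b, a demethylase that acts on this and another lysine of histone H3, went from 124 ± 18.6 CPM to 68.1 ± 2.21 and 71.7 ± 0.546 (edgeR adjusted p = 0.00121 and 0.00391). Supt6, an elongation factor, went from 225 ± 14.5 to 176 ± 4.64 and 179 ± 7.16 CPM (adjusted p = 0.0154 and 0.0337). Polr2a, the largest subunit of RNA polymerase II, stood at 80.5 ± 5.44, 90.4 ± 3.19 and 97.3 ± 2.66 CPM, and DESeq2 but not edgeR called it in treated mice. The gene that edgeR called higher was Smyd2, a methyltransferase, named here because it completes the count.

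Of 21 partners of optineurin and genes of selective autophagy, edgeR and DESeq2 each called 2 lower in untreated mice and 1 in treated mice, and 0 higher, none being higher at an unadjusted P under 0.05. Calcoco1, an autophagy receptor of the endoplasmic reticulum, went from 133 ± 9.40 CPM to 95.3 ± 6.53 and 96.7 ± 5.20 (edgeR adjusted p = 0.00761 and 0.0159). Nbr1, another autophagy receptor, went from 200 ± 7.39 to 165 ± 9.09 CPM in untreated mice (adjusted p = 0.0333) and stood at 172 ± 6.91 in treated mice. Atg13, which acts in the start of autophagy, stood at 109, 98.0 and 91.6 CPM and was called by neither tool. Of 12 genes of Rab5 early endosomes, where HAP40 and huntingtin act together, 1 was called lower in each comparison with WT by both tools. It was Rin1, an activator of Rab5 that is abundant in forebrain neurons, which went from 106 ± 13.5 CPM to 62.6 ± 6.90 and 66.1 ± 3.12 (edgeR adjusted p = 0.00393 and 0.0116). Eea1, an endosome tether, stood at 45.0 ± 8.83, 55.4 ± 3.73 and 51.8 ± 2.98 CPM, and Appl2 at 101 ± 5.44, 89.6 ± 6.38 and 93.6 ± 8.81 CPM. Of 11 relatives and partners of Rasd2, edgeR called 0 in any comparison, with 2 lower at an unadjusted P under 0.05 in untreated mice, and DESeq2 also called 0. Uba2, a subunit of the SUMO-activating enzyme, stood at 92.5 ± 1.30, 83.8 ± 3.42 and 85.7 ± 0.723 CPM, and Mlst8, a subunit of the mTOR complexes, at 44.4 ± 4.34, 37.9 ± 1.97 and 40.9 ± 3.34 CPM. The closest relative of Rasd2, Rasd1, varied widely at 9.59 ± 6.13, 4.71 ± 2.24 and 5.62 ± 0.983 CPM.

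Between treated and untreated mice 0 genes of the 8 lists were called by edgeR or DESeq2. At an unadjusted P under 0.05 there were 2 lower transport genes, 1 lower clathrin gene, 1 higher palmitoylation gene, and 1 higher and 2 lower among the other binding genes. Among them Zdhhc14 stood at a log2 fold change of 0.27, Snap91 at −0.24 and Git1 at −0.26, and in each the groups did not overlap. The shares of these lists called by edgeR in untreated mice ran from 0 to 15.8%, around the 10.7% of all genes, and in treated mice from 0 to 10.5%, around 3.69%.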

How the data were processed

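Striatal RNA was measured in 9 mouse libraries, 3 each of WT, untreated and treated mice. Reverse transcription from oligo-dT restricts the reads to the 3′ part of each mRNA. The authors deposited raw counts per Ensembl gene, not normalized. Per the labels, the processing notes name Trimmomatic 0.39, FastQC 0.11.9, HISAT2 2.2.1 and featureCounts 2.0.1 with the pig build Sscrofa11.1, whereas the study's methods name STAR, so the aligner is uncertain and the mouse build is not given in the sources used here. Whether counts are molecules or reads and whether strand was used is not given either. The table of 9 pig libraries was not used. Symbols, chromosomes, transcripts and overlaps came from GENCODE M21 (GRCm38), which named 94.1% of the gene IDs. The sequences of the guides came from the study's supplementary tables.

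Counts of the 9 mouse libraries were fitted together in edgeR 4.0.16 (R 4.3.3, limma 3.58.1) with TMM scaling, the filterByExpr filter, glmQLFit and glmQLFTest, leaving 6 residual degrees of freedom, and P values were adjusted by Benjamini-Hochberg over all 19463 genes. Genes with an adjusted p under 0.05 are called changed. CPM are TMM-scaled, and log2 CPM used a prior count of 2. Intervals are 95%. Exact permutation tests were two-sided. The steps were checked on simulated counts. DESeq2 1.42.0, other scalings and filters, a block, a Y-linked covariate, the study's fold rules and leaving out each library were alternatives. Depth was 27184356 to 32102121 counts. Python 3.11.15 with matplotlib 3.10.9 made the plots. From each of the 8 lists, the 3 genes with the smallest P over the comparisons are named, with all 10 chosen genes and, for Htt and Rasd2, the 3 genes most correlated with each, of which 1 is not reported here. Marker lists are given as sums. The genes and lists were chosen with earlier results of these data known.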

Additional observations from a re-analysis of the deposited data

How the results depend on the processing

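The count of called genes among the 10 was 2 in untreated and 2 in treated compared with WT and 0 between them. With the Y-linked share as a covariate it was 1 and 0. Under P below 0.05 with at least 2-fold, and under P below 0.01 with at least 2-fold, it was 1 in each comparison with WT. Under P below 0.05 alone it was 4 in untreated compared with WT and 1 between treated and untreated mice. Over all tested genes, 5575 and 1071 met that rule in these 2 comparisons. Leaving out 1 library gave 2 to 3, 2 to 2 and 0 to 0. The Htt difference in untreated mice was −0.38 with the Y-linked covariate (adjusted p = 0.0591), and the loss of the call was seen with Rasd2 and Htt in treated mice as well. The causes were not tested.

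Signs turned for differences close to 0. Without TMM scaling Setd2 in untreated mice was 0.0099, Zdhhc17 in treated mice 0.0075 and Hip1r between the HD groups 0.0087. Zdhhc17 in treated mice was 0.13 with the Y-linked covariate. Hip1r between the HD groups was 0.0048 under DESeq2 size factors, 0.0047 in the DESeq2 test, 0.0058 without a filter, 0.016 with at least 10 counts in every library and 0.0053 with the compared groups alone. Leaving out 1 library gave ranges of −0.057 to 0.079 for Zdhhc17 and −0.10 to 0.021 for Setd2 in untreated compared with WT mice, and −0.22 to 0.0054 for F8a and −0.13 to 0.0080 for Zdhhc17 in treated compared with WT mice. Between treated and untreated mice the ranges were −0.052 to 0.031 for Hip1r, −0.080 to 0.11 for F8a, −0.12 to 0.0030 for Setd2 and −0.036 to 0.061 for Dctn1. The Htt difference between treated and untreated mice ranged from −0.12 to −0.07.

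Over all genes, 2080 were called in untreated compared with WT mice, but 726 with the compared groups alone, 1096 without a filter, 457 with the Y-linked covariate and 3473 in DESeq2. In treated compared with WT mice 718 became 365 without a filter, 5 with the covariate and 1946 in DESeq2. Leaving out 1 library gave 912 (without WT replicate 2) to 2584 (without WT replicate 1) in the first comparison and 136 (without treated replicate 2) to 1380 (without untreated replicate 3) in the second. The deviations of same-numbered libraries correlated at −0.08 to 0.24, the highest between untreated and treated replicate 3. Differently numbered libraries were not compared in this way, so whether the numbers pair libraries was not settled. With the replicate number as a block, 2, 2 and 0 of the 10 genes were called, and the Htt difference between treated and untreated mice was −0.10 (adjusted p = 0.950). With 3 libraries a group, the 95% interval of Htt between treated and untreated mice spanned −0.23 to 0.03.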
